A study of Chlorocebus sabaeus with 10 samples.

Results

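The acute phase plasma proteins are a set of 10 listed genes, CRP, HP, ORM1, LBP, ITIH3, ITIH4, SERPINA3, SAA4, LCN2 and FGL1, whose products the liver releases into the blood. Genes were matched by symbol to the deposited transcript counts of vervet monkey (Chlorocebus sabaeus) liver biopsies, from an Old World monkey. Of the 10 genes, 9 were found, each with 1 transcript, among 28078 annotated transcripts, and HP was not analysed here. The 5 HFr animals were fed a high fructose diet for 6 weeks and the 5 chow animals stayed on chow, the diet on which all 10 had been kept before. All were female, were assigned to a diet with age and body weight balanced, and gave 1 liver biopsy and 1 polyadenylated RNA library each.

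The acute phase response is the change in plasma protein output by which hepatocytes answer infection or injury. Interleukin 6 acts through its receptor, JAK kinases and STAT3, and interleukin 1 and TNF act through NF-kB, to raise transcription of the positive acute phase genes. Transcripts of carriers such as albumin and transthyretin fall in the same response. C-reactive protein, the product of CRP, is the usual plasma marker of inflammation in primates.

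No acute phase gene passed the test between the diets. Of the 9 genes found, 8 had enough counts to be tested, and LCN2 did not. At the study's threshold, an unadjusted p under 0.05, edgeR's quasi-likelihood test called 0 of the 8, beside 4.29% of all 7948 tested transcripts (2.06% higher and 2.23% lower on HFr). The adjusted p of each gene was 0.9996, and DESeq2 and limma also placed 0 of the 8 under the unadjusted threshold. The HFr and chow ranges of all 9 genes overlapped, where those of 0.541% of all tested transcripts did not. The log2 fold change was above 0 for 6 of the 8, with a median of 0.18, beside 49.8% and a median of -0.000750 for all tested transcripts. The values of several genes varied widely between animals, up to 15.8-fold for CRP over the 10, and CRP, SAA4, LBP and ORM1 were high or low in the same animals of either diet.

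Values below are normalized counts, that is, estimated counts divided by library sizes that were scaled with TMM factors (CPM). They are not divided by transcript length, so levels are compared between animals and not between genes. The p-values of single genes are unadjusted and from edgeR unless another test is named, and SE stands for standard error. Coordinates are those of the ChlSab1.1 build, and each gives the whole transcript as annotated, introns included. Total counts per animal ranged from 2977282 to 4992505, and transcripts of the mitochondrial genome took from 34.7% to 73.6% of them, with means of 55.5% on HFr and 55.4% on chow (two-sided exact permutation test, p = 0.992). The share was above 60% in HFr replicates 1, 3 and 4 and in chow replicates 4 and 5. Hepatocyte markers were abundant in every library, and their summed level was 37472 to 59716 normalized counts on HFr and 36681 to 64679 on chow.

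**Figure D1:**
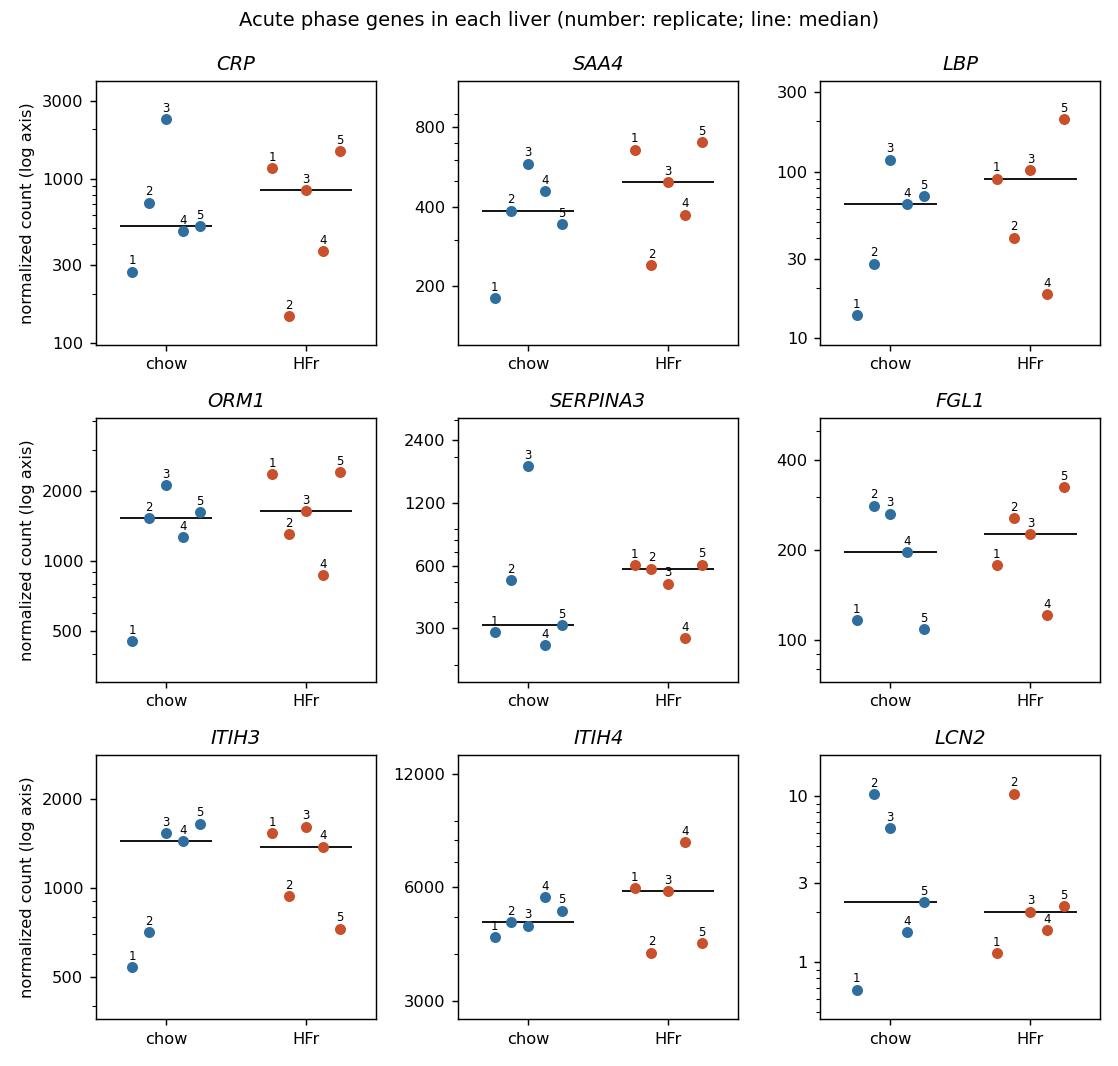
Normalized counts (log axis) of the 9 acute phase genes in each chow and HFr liver, with a number for the replicate and a line for the median of the diet. The diets overlap in every panel. Chow replicate 3 stands at the top of its group for CRP and SERPINA3, and HFr replicate 5 has the highest value of all for LBP (206 normalized counts).

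CRP, whose pentraxin product binds phosphocholine on bacteria and dying cells, lies on chromosome 20 from 4232913 to 4235377. The HFr animals, in the order of their replicate numbers, had 1158, 147, 850, 363 and 1476 normalized counts of CRP. The chow animals had 272, 717, 2320, 481 and 515. The highest value was therefore in a chow animal and the lowest in an HFr animal. The means were 799 ± 549 on HFr and 861 ± 831 on chow (SD, n = 5 each), and the log2 fold change from chow to HFr was -0.11 (SE 0.61, edgeR unadjusted p = 0.859). Its 95% interval ran from -1.41 to 1.19, that is, from 0.377-fold to 2.28-fold. The direction rested on single animals, since the log2 fold change was 0.69 without chow replicate 3, 0.16 without HFr replicate 2 and 0.07 without HFr replicate 4.

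SAA4 encodes the constitutive form of serum amyloid A, an apolipoprotein of high density lipoprotein, and lies on chromosome 1 from 46702959 to 46712572. Its normalized counts were 659, 241, 497, 374 and 705 in the HFr animals and 180, 387, 583, 459 and 343 in the chow animals. HFr replicates 1 and 5 were above every chow animal, and HFr replicate 2 was below all but chow replicate 1. The log2 fold change was 0.34 (SE 0.33, edgeR unadjusted p = 0.316, 95% interval -0.36 to 1.046). It was 0.16 without chow replicate 1, 0.18 without HFr replicate 5, 0.21 without HFr replicate 1, 0.52 without HFr replicate 2 and 0.53 without chow replicate 3.

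LBP, the lipopolysaccharide binding protein that hands bacterial lipid to CD14 and TLR4, lies on chromosome 2 from 25374755 to 25406839. Its normalized counts were 90.8, 40.1, 102, 18.4 and 206 on HFr and 13.7, 28.03, 118, 63.7 and 71.2 on chow. Each diet had an animal under 20 normalized counts, HFr replicate 4 and chow replicate 1, and a 15.01-fold range separated the lowest animal from the highest. The log2 fold change of LBP, 0.63, was the largest of the 8, with an SE of 0.59 (edgeR unadjusted p = 0.298). Its 95% interval, from -0.62 to 1.89, allows a rise of up to 3.71-fold. Without HFr replicate 5 the log2 fold change was 0.08, and without chow replicate 3 it was 1.07.

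ORM1, the gene of alpha-1-acid glycoprotein, which carries basic drugs in plasma, lies on chromosome 12 from 25256969 to 25260446. The HFr animals had 2361, 1305, 1640, 868 and 2424 normalized counts of ORM1, and the chow animals 455, 1529, 2128, 1265 and 1620. Chow replicate 1 was the lowest of the 10 and HFr replicate 5 the highest. The log2 fold change was 0.30 (SE 0.37, edgeR unadjusted p = 0.441, 95% interval -0.51 to 1.101), and it was 0.07 without chow replicate 1 and 0.50 without chow replicate 3.

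SERPINA3 encodes alpha-1-antichymotrypsin, an inhibitor of neutrophil cathepsin G, and lies on chromosome 24 from 72402560 to 72415507. Its normalized counts were 606, 581, 492, 269 and 607 on HFr and 287, 510, 1805, 249 and 311 on chow. Chow replicate 3 stood at 1805, above every other animal, while 4 of the 5 HFr animals were above the chow median of 311. The sign of the difference depended on this animal and on the scale. The log2 fold change was -0.31 (SE 0.49, edgeR unadjusted p = 0.536, 95% interval -1.36 to 0.74), it was 0.59 without chow replicate 3 (edgeR unadjusted p = 0.0613), and it was 0.09 with limma on log2 values.

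FGL1, a liver-made fibrinogen-like protein that binds the lymphocyte receptor LAG3, lies on chromosome 8 from 15962053 to 15982336. Its normalized counts were 178, 256, 226, 121 and 324 on HFr and 117, 281, 265, 197 and 109 on chow. The animals of both diets covered nearly the same range. The log2 fold change was 0.19 (SE 0.31, edgeR unadjusted p = 0.554, 95% interval -0.48 to 0.86). With 1 animal left out it ranged from 0.0088, without HFr replicate 5, to 0.36, without chow replicate 2, and it was 0.05 without chow replicate 1 and 0.03 without chow replicate 5.

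ITIH3 and ITIH4 encode heavy chains of the inter-alpha-trypsin inhibitor family, proteins that bind and stabilize hyaluronan or, for ITIH4, circulate after release by the liver. They are neighbours on chromosome 22, where ITIH3 runs from 14177334 to 14191353 and ITIH4 from 14195701 to 14213603 on the opposite strand, with 4347 bases between them. ITIH3 had 1529, 936, 1609, 1378 and 728 normalized counts on HFr and 542, 707, 1531, 1438 and 1649 on chow. ITIH4 had 5983, 4027, 5861, 7906 and 4259 on HFr and 4432, 4856, 4745, 5663 and 5203 on chow. ITIH4 had the narrowest range of the 9 genes, 1.96-fold. Their log2 fold changes were 0.08 (SE 0.33, edgeR unadjusted p = 0.825) and 0.17 (SE 0.26, edgeR unadjusted p = 0.513). The 95% interval of ITIH4, from -0.38 to 0.72, was the shortest of the 8, and that of ITIH3 ran from -0.64 to 0.79. Without HFr replicate 4 the log2 fold change of ITIH4 was 0.0086, and without HFr replicate 2 it was 0.27. The sign for ITIH3 was the opposite without HFr replicate 1 or 3 or chow replicate 1 or 2 (-0.02, -0.05, -0.11 and -0.06).

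LCN2, lipocalin 2, binds the siderophores with which bacteria collect iron, and neutrophils and bile duct cells make it as well as hepatocytes. It lies on chromosome 12 from 9976614 to 9980870. The estimated counts of LCN2 were 3, 46, 5, 7 and 11 in the HFr animals and 3, 47, 35, 3 and 5 in the chow animals. In normalized counts these were 1.13, 10.3, 2.02, 1.56 and 2.18 on HFr and 0.686, 10.3, 6.42, 1.52 and 2.30 on chow. HFr replicate 2 and chow replicates 2 and 3 were thus above the other 7 animals, which had at most 2.30. In the fit over all 16066 transcripts with a count in any animal, the log2 fold change of LCN2 was -0.34 (SE 0.59, edgeR unadjusted p = 0.566). These 3 animals were among the 4 with the lowest mitochondrial shares, between 34.7% and 43.0%, and HFr replicate 5, at 44.0%, was the other low one.

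Neutrophil and bile duct markers were set beside LCN2, because a bulk biopsy cannot tell more cells of a type from more RNA per cell. Of 13 neutrophil markers found, S100A12, ELANE and MMP8 were at 0 in every animal, and MPO and CXCR2 had 1 count each over all animals. The most counts over all animals were 305 for CSF3R, 197 for S100A8, 178 for S100A9 and 93 for MMP9, beside 165 for LCN2. Only CSF3R was tested. The summed neutrophil markers were 8.89 to 28.6 normalized counts on HFr and 11.6 to 63.3 on chow, and the top value was in chow replicate 3. HFr replicate 2 and chow replicate 2, with the most LCN2, had sums of 9.42 and 12.7. Of 8 cholangiocyte markers found, EPCAM and SOX9 were tested, and the sums were 5.998 to 28.9 on HFr and 10.6 to 32.9 on chow. In HFr replicate 2, chow replicate 2 and chow replicate 3 the cholangiocyte sums were 28.9, 25.6 and 23.5, beside 32.9 in chow replicate 1, whose LCN2 was the lowest. The part of these cells in the LCN2 values was not tested.

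**Figure D2:**
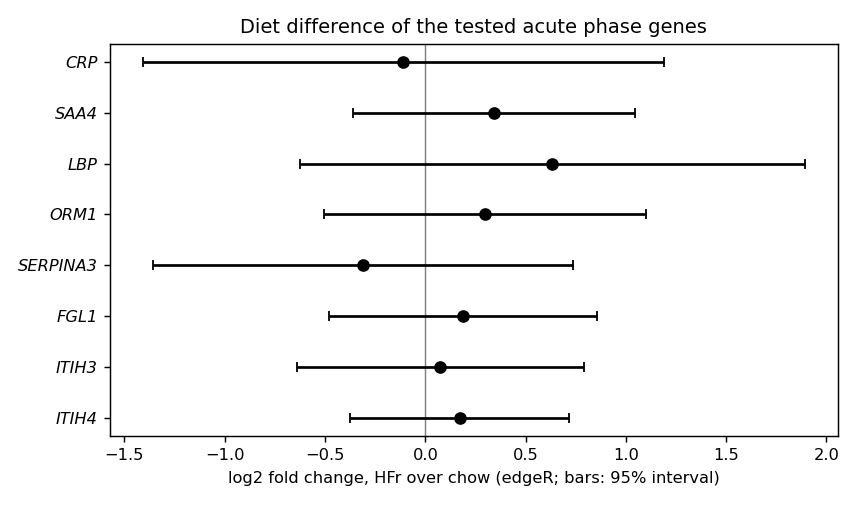
Log2 fold change from chow to HFr of the 8 tested acute phase genes from edgeR, with the 95% interval as bars and a line at 0. Every interval includes 0, and the intervals of CRP and LBP, from -1.41 to 1.19 and from -0.62 to 1.89, are the widest.

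The width of these intervals follows the variation between animals of the same diet, which edgeR gives as a biological coefficient of variation (BCV), the relative spread of a transcript beyond counting error. The BCV was 64.9% for CRP, 62.8% for LBP and 53.6% for SERPINA3, beside a median of 25.0% over all tested transcripts. CRP ranked 81st of the 7948 tested transcripts from the most variable, LBP 93rd and SERPINA3 189th. For SERPINA3 the SD of the log2 values was 1.17 on chow and 0.499 on HFr, and chow replicate 3 stood at 1805 normalized counts, above every other animal. The BCV of ORM1 was 41.8%, and those of ITIH3, SAA4 and FGL1 were 38.0%, 37.8% and 36.2%. ITIH4, at 27.6%, was near the middle. Of the 588 transcripts with a mean of at least 100 normalized counts, whose median BCV was 27.3%, CRP was the 12th most variable and SERPINA3 the 30th, and ITIH4 was 281st.

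**Figure D3:**
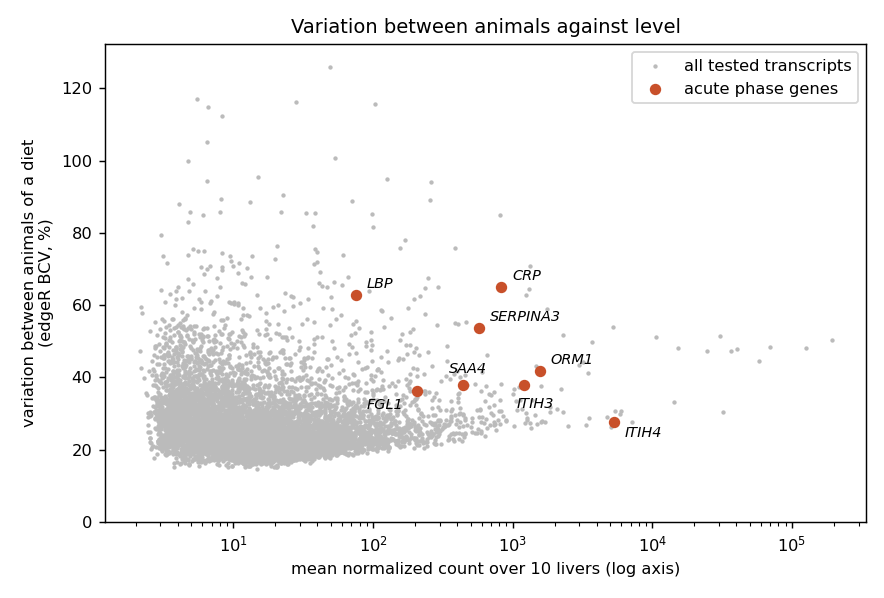
Variation between animals of a diet (edgeR BCV, in percent) against the mean normalized count over 10 livers (log axis), with each tested transcript in grey and the 8 acute phase genes in color. CRP, LBP and SERPINA3 lie between 53.6% and 64.9%, in the upper part of the cloud at their level, and ITIH4 lies at 27.6%, within it.

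Part of this variation was shared between the genes. Over the 10 animals and the 28 pairs of the 8 tested genes, the Pearson correlation of log2(normalized count + 1) was above 0 for 23 pairs, with a median r of 0.484. With p-values from 100000 permutations adjusted over the 28 pairs, 4 pairs had an adjusted p under 0.05 by Pearson's r and 7 by Spearman's rho. CRP, SAA4, LBP and ORM1 made up the 4 pairs and 6 of the 7. Pairs of other transcripts were not examined in this way, so these counts are not shown to be particular to the acute phase genes.

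ORM1 and LBP had the closest relation, with r = 0.879 (permutation p = 0.000150, adjusted p = 0.00420) and rho = 0.915 (permutation p = 0.000460, adjusted p = 0.0129). Without the 2 animals farthest from the median of ORM1, r was 0.746. CRP and SAA4 had r = 0.862 (permutation p = 0.00127, adjusted p = 0.0150) and rho = 0.891 (permutation p = 0.000970, adjusted p = 0.0136), and r was 0.895 without the 2 animals farthest in CRP. For ORM1 and SAA4, r was 0.852 (permutation p = 0.00161, adjusted p = 0.0150) and rho 0.842 (permutation p = 0.00351, adjusted p = 0.0211), with r = 0.817 without the 2 animals farthest in ORM1. LBP and SAA4 had r = 0.818 (permutation p = 0.00404, adjusted p = 0.0283) and rho = 0.830 (permutation p = 0.00465, adjusted p = 0.0217), with r = 0.775 without the 2 animals farthest in LBP. In the 4 pairs r stayed between 0.806 and 0.914 after the diet mean of each gene was subtracted, and between 0.818 and 0.898 after a straight line on the mitochondrial share was removed.

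CRP with ORM1 and CRP with LBP passed by rho alone. Their rho was 0.879 and 0.842 (adjusted permutation p = 0.0157 and 0.0211), and their r was 0.716 and 0.727 (adjusted permutation p = 0.0835 for both). Without the 2 animals farthest in CRP, HFr replicate 2 and chow replicate 3, r was 0.922 and 0.856. ORM1 with SERPINA3 also passed by rho alone, at 0.806 (adjusted permutation p = 0.0280), with r = 0.618 (adjusted permutation p = 0.172). HFr replicate 2, with the lowest CRP of all, 147 normalized counts, had 581 of SERPINA3 and 256 of FGL1, not below the medians of its diet, and its SAA4 and LBP were below theirs.

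The relation of ITIH3 and ITIH4 with CRP was not shown at this number of animals. The r with CRP was 0.290 for ITIH3 (rho = 0.370) and 0.050 for ITIH4 (rho = 0.103), with permutation p-values of 0.413 and 0.892 for r and 0.296 and 0.787 for rho, and no pair with either passed the adjustment. Between the 2 neighbours, r was 0.599 (permutation p = 0.0656, adjusted p = 0.172) and rho 0.479 (permutation p = 0.167, adjusted p = 0.275). The mitochondrial share was set beside all 9 genes, and none of the 9 relations passed adjustment (the smallest adjusted permutation p was 0.122, for LCN2). The 5 animals above 60% had 5203 to 7906 normalized counts of ITIH4 and the other 5 had 4027 to 4856, a split chosen after the values were seen. The share of all tested transcripts that separate at this split was not computed, so whether ITIH4 is unusual in this is not known. For ITIH4 and the mitochondrial share r was 0.608 (permutation p = 0.0593) and rho 0.624 (permutation p = 0.0616), with r = 0.545 without the 2 animals farthest in the share. For LCN2 they were -0.759 (permutation p = 0.0135) and -0.576 (permutation p = 0.0884), with r = -0.498 without these animals. The r of ITIH3 was 0.583, that of FGL1 -0.647 and that of SERPINA3 -0.610 (rho 0.576, -0.648 and -0.648, permutation p of r 0.0835, 0.0484 and 0.0525 and of rho 0.0888, 0.0471 and 0.0486). For CRP, SAA4, LBP and ORM1 r lay between -0.197 and 0.018 (permutation p from 0.605 to 0.983) and rho between -0.152 and 0.055. Without the 2 animals farthest in the share, however, r for CRP was -0.626, against -0.139 with all 10. Among cell markers, r with the share was 0.662 to 0.715 for 6 of 7 tested macrophage markers (-0.241 for CSF1R) and 0.783 for the hemoglobin gene HBB. It was -0.300 to 0.058 for lymphocyte markers, -0.235 for CSF3R, and -0.342 and -0.455 for EPCAM and SOX9. For hepatocyte markers it ran from -0.721 to 0.197, with a median of -0.193. These values are descriptions with no p. The part of these cells in the ITIH4 values was not tested.

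**Figure D4:**
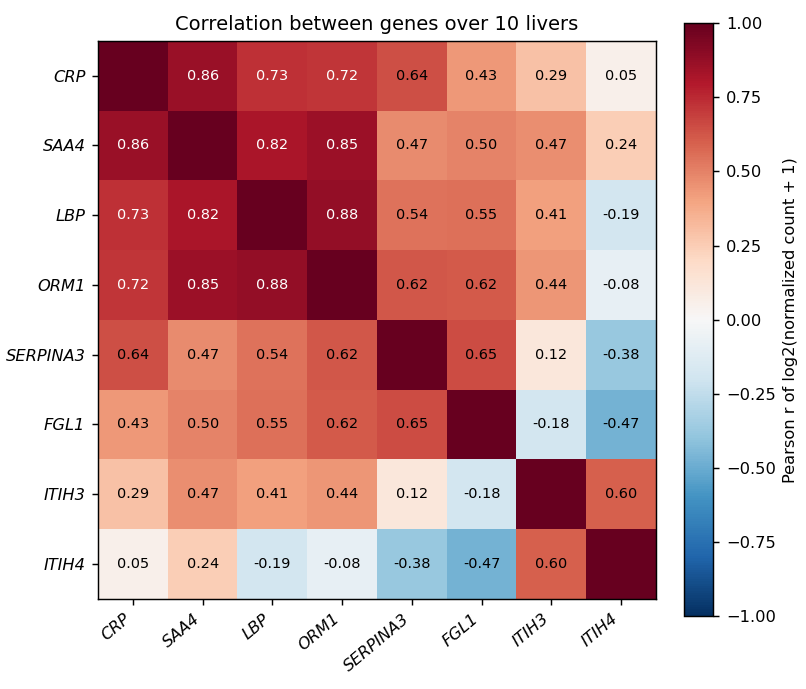
Pearson r of log2(normalized count + 1) over 10 livers for each pair of the 8 tested acute phase genes. The block of CRP, SAA4, LBP and ORM1 has r from 0.716 to 0.879, and ITIH4 has r from -0.470 to 0.245 with all genes but ITIH3.

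The mean of the 8 genes, each centered on the log2 scale, was highest in chow replicate 3 (0.84), HFr replicate 5 (0.60), HFr replicate 1 (0.48) and HFr replicate 3 (0.34). It was lowest in chow replicate 1 (-1.09), HFr replicate 4 (-0.47) and HFr replicate 2 (-0.42). Both ends of this order held animals of both diets. The other 3 chow animals lay between -0.11 and -0.08.

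**Figure D5:**
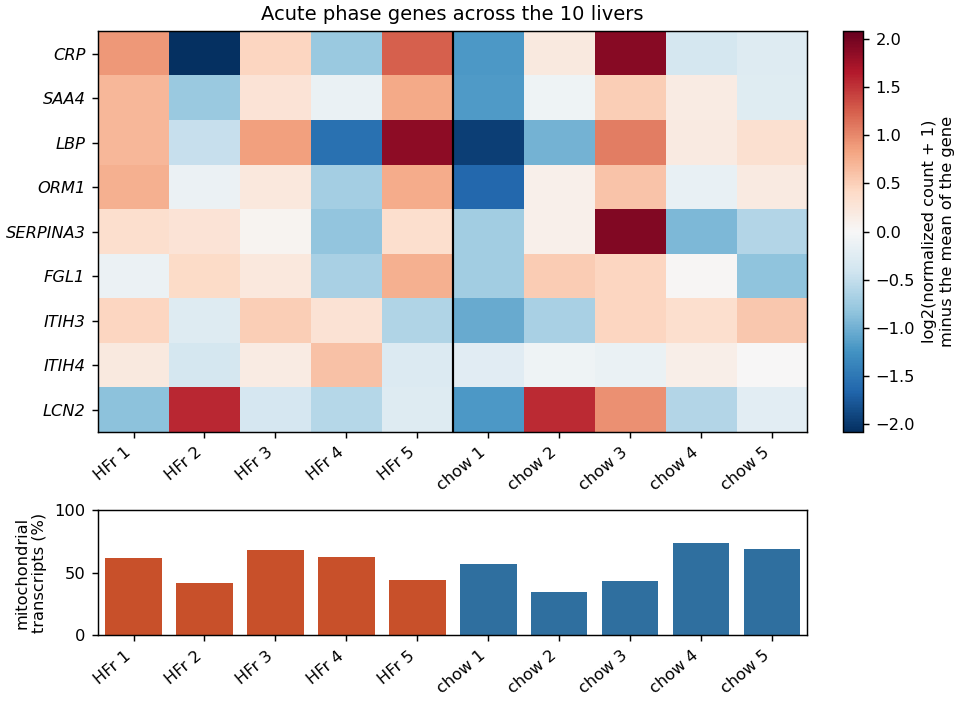
Upper panel, log2(normalized count + 1) of the 9 acute phase genes minus the mean of the gene, in each of 10 livers, with a line between the diets. Lower panel, the percent of counts on mitochondrial transcripts in the same livers. HFr replicates 1 and 5 and chow replicate 3 are high for CRP, SAA4, LBP and ORM1, chow replicate 1 is below the mean of the gene for all 9, and LCN2 is high in HFr replicate 2 and chow replicates 2 and 3.

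Among 4490 other named transcripts with a mean of at least 10 normalized counts, those most like this mean over the 10 animals were SEC24D (r = 0.935, rho = 0.964), ELF3 (r = 0.933, rho = 0.927), APOL6 (r = 0.917, rho = 0.915), IP6K3 (r = 0.917, rho = 0.806) and SERPINA10 (r = 0.916, rho = 0.927). They were picked as the highest of many and share the libraries and their normalization, so these values describe the animals and carry no p. SEC24D is a coat protein of vesicles that leave the endoplasmic reticulum and ranged from 11.7 to 27.9 normalized counts. ELF3 is an epithelial ETS transcription factor and ranged from 5.03 to 44.2, and SERPINA10, the protein Z-dependent protease inhibitor of plasma, ranged from 65.4 to 149. For CRP alone the most like were LGMN, the lysosomal protease legumain (r = 0.966, rho = 0.964), SERPINA10 (r = 0.905) and SEC24D (r = 0.888). LGMN spanned 74.9 to 150 normalized counts while CRP spanned 147 to 2320.

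Of 26 other positive acute phase genes listed, 22 were found and 20 tested, and edgeR placed 0 under 0.05 in either direction. SAA1, SAA2, ORM2 and MT2A were not found by symbol, so these results do not cover them. The median log2 fold change of the 20 was 0.08, with a range from -0.08 to 0.33. It was above 0 for 16 of the 20, beside 49.8% of all tested transcripts. C3, the central complement component, had 5997 ± 1209 normalized counts on HFr and 5687 ± 1656 on chow (SD, n = 5 each), and SERPINA1, alpha-1-antitrypsin, had 5446 ± 1159 and 5295 ± 1665. Over the 10 animals, 19 of the 20 had r above 0 with the mean of the acute phase genes, with a median r of 0.681, beside -0.010 over all other tested transcripts. FGB, the fibrinogen beta chain, had r = 0.911, C9 of the terminal complement complex 0.892 and CP, ceruloplasmin, 0.876. TIMP1, a metalloproteinase inhibitor, was the one below 0, at -0.314.

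Of 14 negative acute phase genes, all were tested and edgeR placed 0 under 0.05. Their median log2 fold change was 0.14 and 9 were above 0, beside 49.8% of all tested transcripts. ALB, albumin, had 29954 ± 7029 normalized counts on HFr and 33893 ± 9017 on chow (SD, n = 5 each), and RBP4, the plasma retinol carrier, had 6841 ± 951 and 7442 ± 1864. TF, transferrin, had an unadjusted p = 0.0468 from DESeq2 and an unadjusted p = 0.155 from edgeR, at a log2 fold change of 0.37 (SE 0.24), and it is named because of that difference between tools. Of the 14, 13 also had r above 0 with the mean of the acute phase genes, with a median r of 0.431. RBP4 had 0.836, GC, the vitamin D carrier, 0.802 and TTR, transthyretin, 0.773, while AHSG, fetuin-A, had 0.045. Of 11 hepatocyte markers, a list that also holds ALB and TTR, 9 had r above 0, with a median r of 0.118 and a highest r of 0.838, for F2. Without the 2 animals farthest in the mean of the acute phase genes, r was above 0 for 8 of the 14 negative genes, with a median of 0.112, and for 17 of the 20 positive genes, with a median of 0.515. It was then 0.895 for FGB, 0.702 for GC, 0.628 for RBP4, 0.490 for TTR and -0.526 for AHSG. Within the positive list, C4BPA and A2M went from 0.576 and 0.534 to 0.060 and -0.045. Whether each listed gene is an acute phase gene in this species was not tested. Without those 2 animals the median was thus lower in both lists, more so for the negative genes, while GC and RBP4 stayed high.

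Upstream of these genes, no signaling gene passed the test. Of 14 genes of interleukin 6 family signaling, 5 were tested, IL6 and SOCS1 were at 0 in every animal, and edgeR placed 0 under 0.05. IL6ST, the shared receptor chain gp130, had 169 ± 39.9 normalized counts on HFr and 178 ± 54.8 on chow, and STAT3 had 78.7 ± 23.5 and 60.8 ± 24.4 (SD, n = 5 each), at a log2 fold change of 0.37 (SE 0.28, edgeR unadjusted p = 0.216). The r of STAT3 with the mean of the acute phase genes was 0.622, and it was 0.470 without the 2 animals farthest in that mean. SOCS3, a feedback inhibitor that STAT3 induces, was at 0.239 ± 0.255 and 0.715 ± 1.36 normalized counts and was not tested.

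Of 17 genes of interleukin 1, TNF and NF-kB signaling, 12 were tested, and TNF itself was not found by symbol. By edgeR 0 of the 12 were under 0.05, beside 4.29% of all tested transcripts. Of the 12, 9 were lower on HFr, with a median log2 fold change of -0.08, while 49.8% of all tested transcripts were above 0. The smallest p was that of MYD88, which was higher on HFr (log2 fold change 0.42, SE 0.22, edgeR unadjusted p = 0.0813). IL1R1, the interleukin 1 receptor, had 104 ± 19.4 normalized counts on HFr and 110 ± 20.6 on chow, and NFKBIA, the inhibitor of NF-kB that NF-kB itself induces, had 73.2 ± 12.8 and 92.0 ± 16.0 (SD, n = 5 each), at a log2 fold change of -0.33 (SE 0.18, edgeR unadjusted p = 0.0932). Of 10 transcription factors of acute phase genes, 6 were tested, with 3 higher and 3 lower and 0 under 0.05, and CEBPD was not found by symbol. CREB3L3, a liver transcription factor, had the largest log2 fold change of these lists and is named for that after its values were seen. It had 4.59 ± 1.15 normalized counts on HFr and 2.49 ± 1.49 on chow (SD, n = 5 each), at a log2 fold change of 0.79 (SE 0.38, edgeR unadjusted p = 0.0545, two-sided exact permutation p = 0.0397), and the diets overlapped. HNF4A, a hepatocyte identity factor, had 196 ± 37.5 on HFr and 218 ± 53.6 on chow, and STAT3 is given above. In the inter-alpha-trypsin inhibitor family, 6 of 8 genes were tested and 0 were under 0.05, and AMBP, the gene of the light chain bikunin, had 3231 ± 617 on HFr and 3480 ± 700 on chow. ITIH6 and TNFAIP6 were at 0 in every animal.

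Macrophage markers, of which 9 were found and 7 tested, summed to 47.6 to 201 normalized counts on HFr and 53.9 to 219 on chow. Their r with the mean of the acute phase genes lay between 0.246 and 0.460, with a median of 0.413. That of CSF3R, the one neutrophil marker tested, was 0.702. Without the 2 animals farthest in that mean, the macrophage median was 0.565 and the r of CSF3R 0.887. The median r was 0.238 for the tested lymphocyte markers and 0.211 for the tested cholangiocyte markers, and 0.484 and 0.012 without these animals. Lymphocyte markers summed to 16.7 to 29.5 on HFr and 17.6 to 22.6 on chow, and blood markers to 101 to 336 and 61.3 to 350. The part of these cells in the acute phase values was not tested.

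Next to SAA4 on chromosome 1 lie a pair of protein-coding genes to which the deposited table gives no symbol, and they were looked at after the values were seen. ENSCSAG00000004965, from 46694098 to 46696933, ranged from 99.2 to 2715 normalized counts, with a BCV of 70.7%, and ENSCSAG00000004969, from 46672577 to 46676391 on the opposite strand, ranged from 11.4 to 769, with a BCV of 89.0%. They ranked 54th and 16th from the most variable of all tested transcripts. In both genes 8 of the 10 estimated counts were fractional, which marks reads shared between transcripts, so the level of each is uncertain. The highest values of both were in chow replicate 4 and HFr replicates 1 and 3, and chow replicate 1 was lowest. Their r with each other was 0.928 (rho = 0.855). With SAA4 it was 0.712 and 0.678 (rho 0.576 and 0.612), and 0.374 and 0.396 without 2 animals, as descriptions with no p. Their log2 fold changes were 0.34 (SE 0.67, edgeR unadjusted p = 0.617) and 0.54 (SE 0.86, edgeR unadjusted p = 0.544).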

How the data were processed

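The authors aligned 100 base paired-end reads of stranded poly(A) libraries to ChlSab1.1 and estimated transcript counts with Ensembl release 93 by expectation-maximization in Partek Flow. The submitters' processing notes name CASAVA 1.8 and STAR 2.5.3a. The deposited estimated counts are not normalized, and 97.9% were whole numbers (within 1e-06). The deposited normalized signal values are these counts scaled by the authors with TMM, at 1 constant per animal to within 0.00147%.

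The counts were rounded, and low transcripts were removed by filterByExpr at its minimum count of 10 and its minimum total of 15 counts. HFr was set against chow by the quasi-likelihood test of edgeR (R 4.3.3, edgeR 4.0.16, limma 3.58.1, DESeq2 1.42.0) with TMM factors (trimmed mean of M values, 0.607 to 1.49) and diet as the only term, and p-values were adjusted by Benjamini-Hochberg over all 7948 tested transcripts, of which 0 had an adjusted p under 0.05. The procedure was tested on simulated data. A standard error is the log2 fold change divided by the square root of F. The pseudocount for log2 values was 1. Coordinates are from the deposited table, counted from 1. Genes and lists were chosen with earlier results of these data known. Named genes are the listed members, the 2 genes with the highest mean in each pathway list with any gene under 0.05, and the transcripts most like the members. Other genes were added after the values were seen, because of their r, their p, their fold change or their place next to SAA4. They are FGB, C9, CP, TIMP1, C4BPA, A2M, GC, TTR, AHSG, TF, F2, SOCS3, MYD88, CREB3L3, CSF1R, HBB and the unnamed neighbours. Each library is from a separate animal, so p-values measure the spread between animals with 1 biopsy each. The alternatives were other normalizations, filters and tests, counts summed by gene, the mitochondrial share or the replicate number as a term, and each animal left out. Fits within animals above or up to 60% mitochondrial share were added after the data were seen.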

Additional observations from a re-analysis of the deposited data

Results flagged for a closer look

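Chow replicate 3 lay far from the other chow animals for CRP, at 2320 normalized counts against 717 in the next, and for SERPINA3, at 1805 against 510. HFr replicate 2 lay far from the other HFr animals for LCN2, at 10.3 normalized counts against 2.18 in the next, from 46 estimated counts. In each case the gap to the nearest animal was over 0.71 of the range of the group, the 95% critical value of Dixon's test for 5 values. Of 18 groups examined, 3 passed, and chance gives about 1 in 20 for independent, normally distributed values, while these genes share animals and their counts are skewed. On the log2 scale the gaps were 0.548 of the range for CRP and 0.638 for SERPINA3, both under the critical value, and 0.761 for LCN2, above it. The same animal gave both of the chow values. Chow replicate 3 also had the largest nuclear count (2657103) and the largest sum of neutrophil markers (63.3 normalized counts), and the part of either in its CRP and SERPINA3 values was not tested.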

How the results depend on the processing

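Under all 24 alternatives, 0 of the tested acute phase genes had an unadjusted p under 0.05. The number of all transcripts under it ranged from 123 to 756, but the number tested changed as well. The 123 were of 7948, with library size only, and the 756 of 16066, with every transcript that had a count. In the main fit the share was 4.29%. With 1 animal left out the number of genes higher on HFr was 5 to 8 and their median log2 fold change 0.06 to 0.51, and in the other fits these were 5 to 7 and 0.09 to 0.24. LBP, SAA4, ORM1 and FGL1 stayed above 0, but FGL1 came to 0.0088 without HFr replicate 5 and LBP to 0.047 in the animals above 60% mitochondrial share. CRP changed sign with the mitochondrial share as a covariate (0.070) and within the animals above 60% (0.67), and ranged from -0.45 to 0.69 with 1 animal left out. SERPINA3 changed sign with limma (0.092), with the replicate block (0.13) and above 60% (0.70). It also did so with the equal-variance t-test of the study (0.13), which was taken here on log2 normalized values. With 1 animal left out SERPINA3 ranged from -0.52 to 0.59. ITIH3 changed sign above 60% (-0.035) and up to 60% (-0.15), and ranged from -0.11 to 0.22 with 1 animal left out. ITIH4 changed sign up to 60% (-0.17). The cause was not tested. Of the negative acute phase genes, 1 (TF) was under 0.05 with DESeq2 and 1 (TF) with the t-test of the study on log2 normalized values. The labels give the replicate number with no word on pairing between the diets. Animals with the same number correlated at -0.287 to 0.099, and 0 of 5 correlated best with their own number. These are few values, and a factor shared by number was not tested further. The replicate block left 0 acute phase genes under 0.05. With 5 animals per diet and BCV values up to 64.9%, the 95% interval of CRP reached from 0.377-fold to 2.28-fold, and LCN2 rested on 3 to 47 counts per animal.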
